A study of Mus musculus with 2 samples.

Results

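One day of exposure to heme was compared with albumin alone in GM-CSF bone marrow (BM) cultures, at culture day 4. The cells were 5262 of the 31339 barcodes in the 2 single-cell libraries of the study, 2263 from the vehicle control culture and 2999 from the heme-exposed culture. They were the barcodes that carried only the day 4 hashtag, had 500 or more detected genes and had under 15% mitochondrial transcripts. Both cultures were grown from lineage-depleted BM progenitors of C57BL/6 mice aged 8 to 10 weeks, with GM-CSF at 20 ng/ml. Heme bound to albumin (300 µM) or albumin as vehicle was added on day 3, so the day 4 cells had been exposed for 24 h. Each group was 1 library in which cultures of 5 days were pooled by hashtag, and the sources used here do not say whether the cultures came from separate animals. As a reference, day 3 cells that had met no heme were taken from both libraries, 2089 from the control and 3351 from the heme library. In the scheme of the paper, cultures were started on different days and harvested together, although the labels give separate harvest days. By that scheme, day 3 and day 4 cells came from separate cultures. Values net of day 3 can thus also hold differences between cultures, which were not tested.

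Heme is the iron-holding pigment of hemoglobin, and macrophages of the spleen take it up when red cells break down. It is imported from the phagolysosome, split by heme oxygenase into iron, biliverdin and carbon monoxide, and the iron is then stored in ferritin or exported through ferroportin. Free heme is also an oxidant, and it displaces the repressor BACH1 from genes that the activator NRF2 (encoded by Nfe2l2) drives, among them those for glutathione and thioredoxin enzymes. GM-CSF drives BM progenitors towards dendritic cells (DCs), macrophages and neutrophils, so each culture held all of these at several stages.

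UMIs (unique molecular identifiers, which count molecules) were summed per culture and are given as CPM (a gene's count scaled to a common total) of that culture. The control culture held 31686612 UMIs with a median of 12016 per cell, and the heme-exposed culture held 46587383 with a median of 11433. With 1 library per group there is no replicate check, so ratios carry exact 95% Poisson intervals and shares exact binomial ones, both of which cover counting error only. Each log2 ratio of heme over control was set relative to the median of the 9061 genes with a mean of 5 CPM or more, which lay at 0.30 on the log2 scale before this centring. The same median was 0.35 on day 3, before heme, so the libraries differed in this respect without exposure. Folds and their intervals were not centred, whereas 2-fold counts use the centred log2 ratio. The fold and the count can thus differ for a gene near the limit. The libraries shared 112 barcodes, of which 15 control and 16 heme cells were among those kept on day 4. Neutrophil genes such as S100a8 and mononuclear phagocyte genes such as Csf1r and Cd74 were present in both cultures, while of the 9 T lymphocyte and NK cell genes 0 reached 5 CPM. In culture sums, fewer cells of a type and less RNA per cell cannot be told apart.

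Hmox1, which encodes heme oxygenase 1 and is the standard marker of heme exposure, checked the labels. It lay at 62.3 CPM in the control culture and at 1945 CPM in the heme-exposed culture, 31.2-fold higher (29.8 to 32.7). It was not at the control level before exposure in the heme library, with 150 CPM on day 3 against 36.03 CPM in the control library. For this reason each day 4 value is set beside its day 3 value, and the net difference is the centred log2 ratio of day 4 minus that of day 3. How much of the early Hmox1 signal was RNA free in the cell suspension was not tested.

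After 1 day, 178 of the 9061 genes (1.96%) were at least 2-fold higher with heme relative to the median gene, and 238 (2.63%) were at least 2-fold lower. These shares are the background for every count of list members given below. On day 3 the numbers were 22 (0.243%) and 32 (0.353%). Of the day 4 genes 17 of the 178 and 19 of the 238 had been past 2-fold in the same direction on day 3, although the libraries already leaned the same way for many of the genes. Of the 178, 143 lay above the median gene on day 3, and of the 238, 230 lay below it, with a median day 3 log2 ratio of -0.71. Counting only genes that also differed 2-fold net of day 3 left 97 higher (1.07%) and 55 lower (0.607%). Higher genes made up 42.8% of all 2-fold differences, and this split depended on scaling and filters, with 84.6% without centring, 27.0% within the cell limits of the study (on genes and ribosomal transcripts together) and 52.9% with no level minimum.

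**Figure D1:**
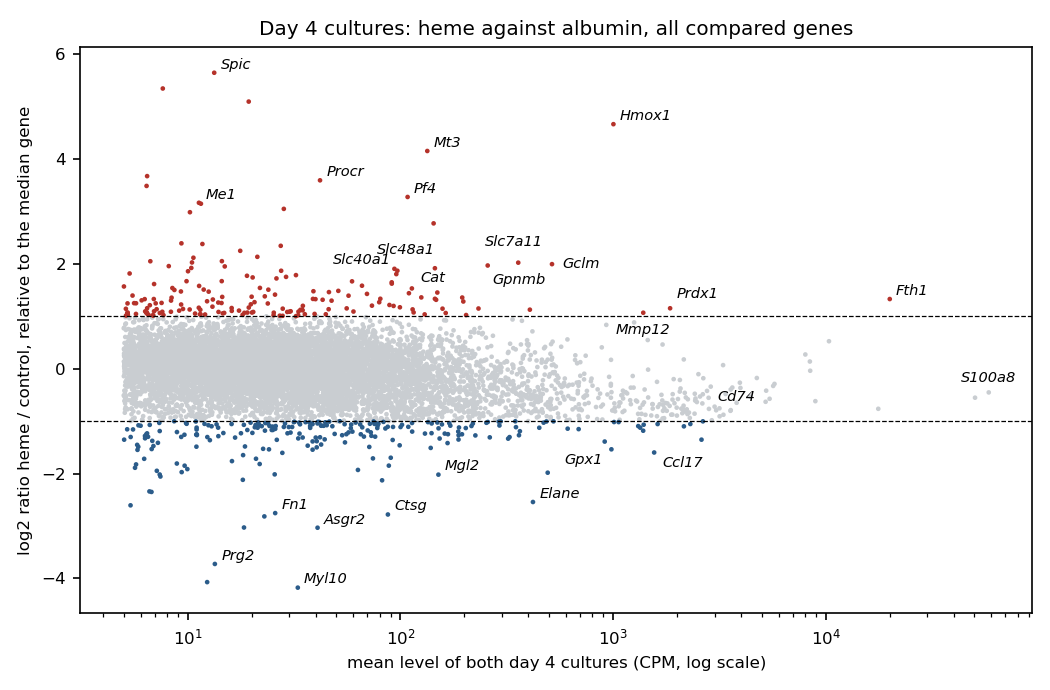
Each point is 1 of the 9061 compared genes, with the mean level of both day 4 cultures in CPM on a log axis and the centred log2 ratio of heme over control on the vertical axis, and dashed lines mark a 2-fold difference. The 178 genes above the upper line include Hmox1 at 4.67 and Fth1 at 1.33, and the 238 below the lower line include Myl10 at -4.17.

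**Figure D2:**
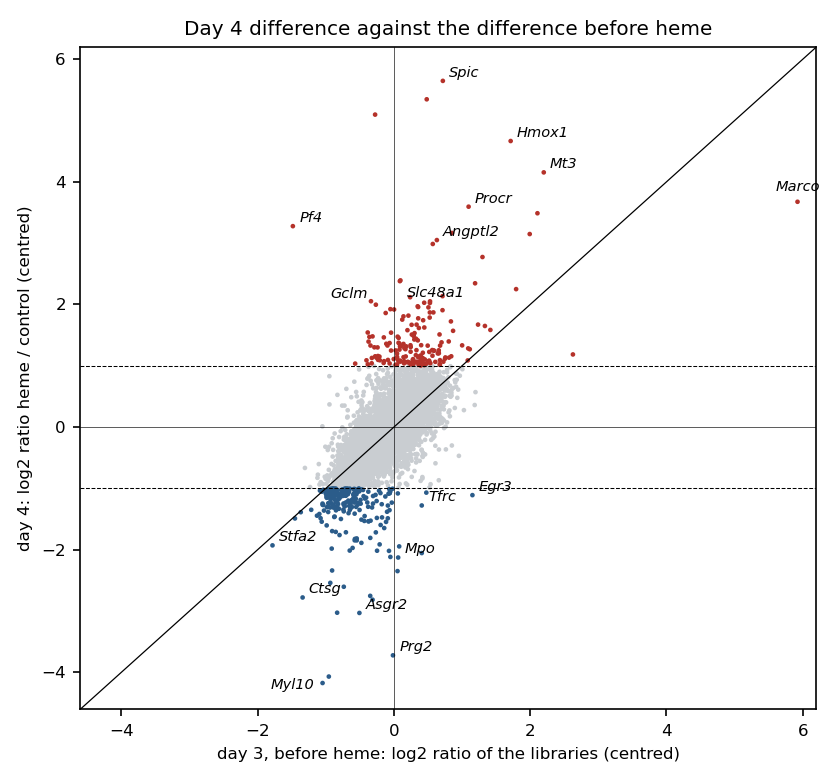
For the same 9061 genes the centred log2 ratio on day 3, before heme, is plotted against that on day 4, with the diagonal marking equal differences on both days. Hmox1 lay at 1.71 on day 3 and 4.67 on day 4, Gclm at -0.26 and 2.00, whereas Marco, at 5.92 and 3.68, fell below the diagonal. The control day 3 level of Marco lay at the floor of 3 UMIs.

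The genes for heme import and breakdown differed by single members rather than as a group. Of 10 measured members, 2 were at least 2-fold higher and 0 lower, beside 1.96% and 2.63% of all compared genes. The median log2 ratio was 0.38 against -0.05 on day 3. Besides Hmox1, which has its locus at chr8:75093621-75100589 on the plus strand of GRCm38, this was Slc48a1, the transporter that moves heme out of the phagolysosome (chr15:97778520-97792692, plus strand). Slc48a1 lay at 51.5 CPM in the control and 239 CPM in the heme-exposed culture, 4.65-fold higher (4.41 to 4.90), after 54.0 and 68.8 CPM on day 3. Its centred day 3 ratio was 0.00, so the full log2 difference of 1.92 was net of day 3. Blvrb, a biliverdin reductase, lay at 145 and 301 CPM, 2.07-fold higher (2.01 to 2.15), with a log2 ratio of 0.76 and a net difference of 1.097. Hmox2, the second heme oxygenase, and Blvra, the other biliverdin reductase, had log2 ratios of -0.65 and -0.68, and on day 3 these were -0.65 and -0.59. They were chosen after their values were seen, and their day 4 ratios lay within 0.1 of those before heme. Flvcr1, a heme exporter, had a log2 ratio of 0.45.

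Among 14 genes of iron storage and transport, 4 were at least 2-fold higher, 1 was lower and 11 lay above the median gene. Over all compared genes 1.96% were higher and 2.63% lower. The ferritin heavy chain gene Fth1 (chr19:9980598-9985098, plus strand) was among the most abundant transcripts of either culture. It stood at 6623 CPM in the control and 6629 CPM in the heme library on day 3, and at 9781 and 30228 CPM on day 4. That was 3.09-fold higher with heme (3.08 to 3.10), and 1.67 on the log2 scale net of day 3. The light chain gene Ftl1 lay at 7481 and 13235 CPM, 1.77-fold higher (1.76 to 1.78), with a centred ratio of 0.53 that stood at -0.83 on day 3. Ferritin pseudogenes share much of these sequences, so the counting could have split reads among them.

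Slc40a1, which encodes ferroportin, the only known cellular iron exporter (chr1:45908068-45926523, minus strand), lay at 35.2 CPM in the control and 158 CPM in the heme-exposed culture, 4.50-fold higher (4.22 to 4.79). On day 3 it lay at 26.3 and 49.96 CPM, and the log2 difference was 1.87 on day 4 and 1.29 net of day 3. Slc11a1, the iron and manganese pump of the phagosome, lay at 10.3 and 41.9 CPM, 4.06-fold higher (3.61 to 4.58). The export side of the pathway was thus higher in the exposed culture, and the main importer was lower. Tfrc, the transferrin receptor, lay at 97.0 CPM in the control and 49.1 CPM in the heme-exposed culture, 1.97-fold lower (1.87 to 2.09), although on day 3 it had been higher in the heme library, with 202 against 120 CPM. Its net log2 difference of -1.69 was among the 8 lowest. Fbxl5, which degrades iron regulatory proteins when iron is plentiful, had a log2 ratio of 1.17, and Ncoa4, which delivers ferritin to autophagy, of 0.70. Both were chosen after their values were seen.

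Spic, the transcription factor of splenic red pulp macrophages (chr10:88674772-88685015, minus strand), had the highest ratio of all compared genes. It was counted 13 times in the control and 1222 times in the heme-exposed culture, which gives 0.410 and 26.2 CPM, 63.9-fold higher (37.2 to 120). On day 3 it lay at 0.926 and 1.96 CPM. Among the 8 measured genes of heme sensing it was the 1 that was at least 2-fold higher, and the median of the list was 0.37. Bach1, the heme-binding repressor itself, lay at 40.7 and 84.8 CPM, a log2 ratio of 0.76. The transcript of Nfe2l2 lay at 181 and 178 CPM (log2 ratio -0.33), and that of its inhibitor Keap1 had a ratio of 0.29. Both were chosen after their values were seen. Of the 7 measured enzymes of heme synthesis 0 were 2-fold higher or lower. Alas1, the rate-limiting step, lay at 187 and 128 CPM, a log2 ratio of -0.84 after -0.47 on day 3, while Fech, which inserts the iron, had a ratio of 0.61.

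**Figure D3:**
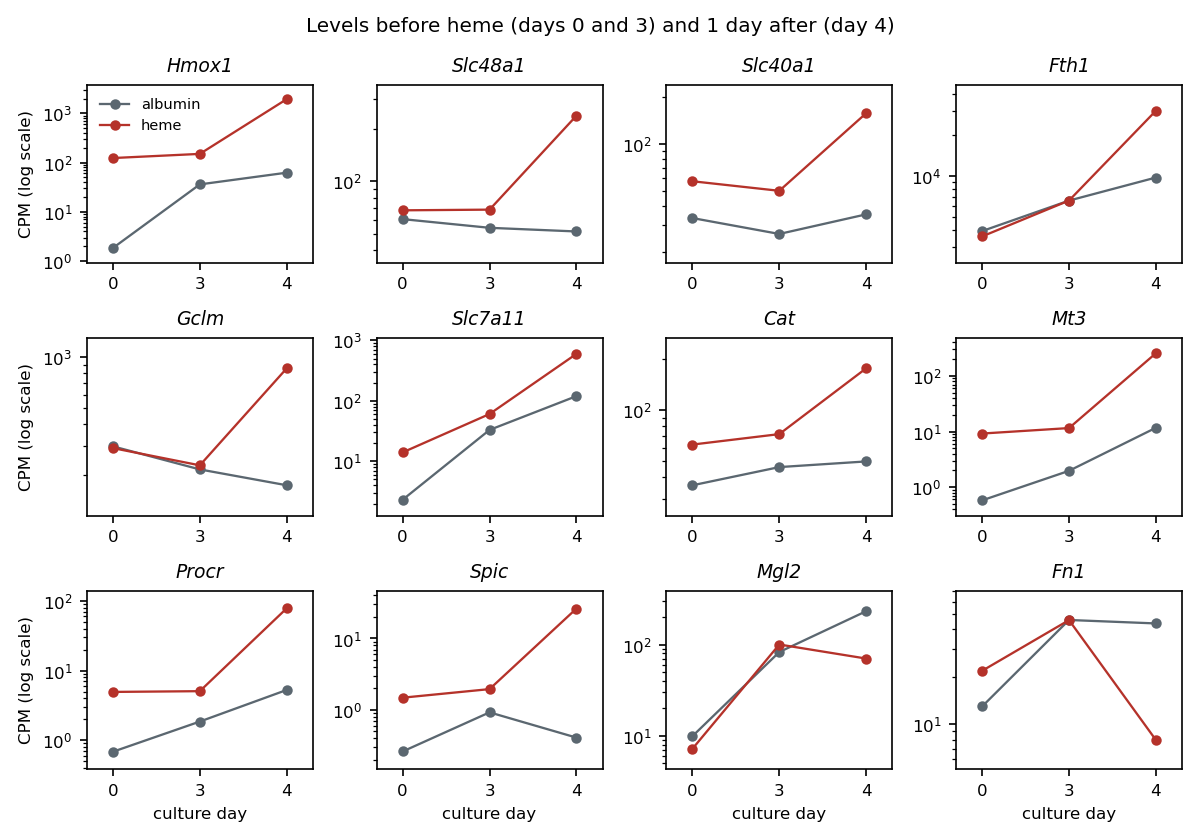
Levels of 12 genes in CPM (log axes, scaled to each gene) are shown for the control library (grey) and the heme library (red) at culture days 0, 3 and 4, with heme or albumin added on day 3 and 1 culture per point. Gclm and Fth1 were level between the libraries until day 3 and apart on day 4, while Hmox1, at 124 against 1.84 CPM on day 0, was higher in the heme library from the start.

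Glutathione is the main small antioxidant of cells. Of 17 measured genes 5 were at least 2-fold higher and 2 lower, beside 1.96% and 2.63% of all compared genes. The median log2 ratio was 0.25 against -0.26 on day 3. Slc7a11, which imports the cystine that limits glutathione synthesis, lay at 119 and 597 CPM, 5.00-fold higher (4.83 to 5.17), after 33.0 and 60.4 CPM on day 3. Gclm, the modifier subunit of the synthesizing ligase (chr3:122245557-122270732, plus strand), lay at 175 and 858 CPM, 4.90-fold higher (4.77 to 5.04). It had been level on day 3, at 217 and 229 CPM, and its net log2 difference of 2.26 was among the 8 highest. Gclc, the catalytic subunit, Gstm1, a glutathione transferase, and Abcc1, which exports glutathione conjugates, had log2 ratios of 1.14, 1.36 and 1.62. The 2 lower members were both peroxidases that use glutathione. Gpx1, which reduces hydrogen peroxide, lay at 1380 and 585 CPM, 2.36-fold lower (2.32 to 2.40), and the log2 ratio was -1.54 after -0.37 on day 3. Gpx3, the secreted form, had a ratio of -1.30. Gsr, which regenerates glutathione, lay at 378 and 644 CPM (log2 ratio 0.47).

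Thioredoxin, peroxiredoxin and catalase genes remove peroxides by another route. Of 14, 6 were at least 2-fold higher and 0 lower, beside 1.96% and 2.63% of all compared genes. The list median was 0.16, after -0.36 on day 3. Srxn1, which repairs overoxidized peroxiredoxin, lay at 24.1 and 94.3 CPM, 3.91-fold higher (3.62 to 4.22). Cat, encoding catalase, lay at 49.7 and 177 CPM, 3.56-fold higher (3.37 to 3.76). Prdx1, an abundant peroxiredoxin, lay at 993 and 2716 CPM, 2.74-fold higher (2.70 to 2.77), and had been close to level on day 3 with 618 and 649 CPM. Nqo1, a quinone reductase and a common readout of NRF2, Txnrd1, thioredoxin reductase, and Sod1, which dismutates superoxide, had log2 ratios of 1.46, 1.03 and 1.06. For Sod1 the ratio was already 0.61 on day 3. Of 8 genes that supply NADPH, the reducing power of these enzymes, 1 was at least 2-fold higher. That was Me1, malic enzyme, which lay at 1.86 and 20.7 CPM, 11.1-fold higher (8.55 to 14.7), while Pgd and G6pdx of the pentose phosphate pathway had ratios of 0.71 and 0.59.

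NRF2 binds the antioxidant response element, which was searched as TGACNNNGC on both strands. RefSeq promoters of GRCm38.p6, from 250 bases before to 50 after the transcript start, were found for 12 of the 18 genes at least 2-fold higher in the lists of heme breakdown, iron, glutathione, thioredoxin and NADPH genes. These letters were in the promoters of 6 of them. Of the 6, 5 are printed here, with the element in capitals, and that of Sod1 is not printed.
Gclm (chr3:122245307-122245606, plus strand): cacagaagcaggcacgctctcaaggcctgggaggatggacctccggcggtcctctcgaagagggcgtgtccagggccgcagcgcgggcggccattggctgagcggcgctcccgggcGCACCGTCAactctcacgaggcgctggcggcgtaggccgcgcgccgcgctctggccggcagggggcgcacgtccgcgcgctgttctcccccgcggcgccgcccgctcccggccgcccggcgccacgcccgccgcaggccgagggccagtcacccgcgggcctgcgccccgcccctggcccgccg
Prdx1 (chr4:116685349-116685648, plus strand): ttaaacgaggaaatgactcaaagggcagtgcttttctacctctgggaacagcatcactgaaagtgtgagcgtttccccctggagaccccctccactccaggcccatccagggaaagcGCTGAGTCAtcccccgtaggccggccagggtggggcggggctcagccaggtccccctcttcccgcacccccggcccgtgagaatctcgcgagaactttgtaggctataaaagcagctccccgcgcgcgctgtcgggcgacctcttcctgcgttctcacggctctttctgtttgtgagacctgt
Srxn1 (chr2:152105274-152105573, plus strand): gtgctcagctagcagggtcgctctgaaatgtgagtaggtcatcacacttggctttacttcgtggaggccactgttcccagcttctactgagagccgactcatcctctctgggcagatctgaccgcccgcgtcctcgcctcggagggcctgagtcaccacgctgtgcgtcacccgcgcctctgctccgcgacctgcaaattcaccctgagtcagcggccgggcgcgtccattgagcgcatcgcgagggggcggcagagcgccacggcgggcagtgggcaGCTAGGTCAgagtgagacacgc
Txnrd1 (chr10:82858956-82859255, plus strand, 1 of several starts): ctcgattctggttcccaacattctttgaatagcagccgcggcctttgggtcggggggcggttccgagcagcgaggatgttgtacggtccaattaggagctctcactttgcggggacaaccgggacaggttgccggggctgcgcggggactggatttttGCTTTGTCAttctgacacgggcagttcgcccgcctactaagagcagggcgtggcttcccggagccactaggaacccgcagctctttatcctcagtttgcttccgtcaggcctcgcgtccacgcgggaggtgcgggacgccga
Me1 (chr9:86695865-86696164, minus strand, 1 of several starts): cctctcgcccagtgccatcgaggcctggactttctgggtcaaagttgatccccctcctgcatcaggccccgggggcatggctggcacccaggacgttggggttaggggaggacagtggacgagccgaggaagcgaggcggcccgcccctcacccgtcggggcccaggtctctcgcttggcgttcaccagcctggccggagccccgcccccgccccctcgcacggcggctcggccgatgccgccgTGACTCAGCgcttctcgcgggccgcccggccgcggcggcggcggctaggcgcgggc
The first base of the element lay 134 bases before the start in Gclm, 133 before it in Prdx1, 92 before it in Txnrd1, 6 before it in Me1 and 28 after it in Srxn1. Of all 32851 promoters 12.4% held these letters. Among the compared genes with a promoter the share was 17.1% (1241 of 7248), among those at least 2-fold higher on day 4 it was 23.9% (32 of 134), and among those at least 2-fold lower 16.4% (32 of 195). A match is a run of letters and not a binding site. Hmox1, Slc48a1, Slc40a1, Fbxl5, Gclc and Abcc1 were not among the 12 genes.

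The 3 metallothioneins, small metal-binding proteins, were all above the median gene and 2 were at least 2-fold higher. Mt3 (chr8:94152607-94154146, plus strand), best known from the brain, lay at 11.7 and 256 CPM, 21.9-fold higher (19.8 to 24.4), but it had differed on day 3 too, with 1.96 and 11.5 CPM. Its net log2 difference was 1.96. Mt2 lay at 22.975 and 79.1 CPM, 3.44-fold higher (3.18 to 3.74), and the abundant Mt1 had a log2 ratio of 0.25. The members are closely related, so reads could have been split among them.

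Counts in other stress programmes stand beside the shares over all compared genes, 1.96% higher and 2.63% lower. Of 24 genes of the integrated stress response, 1 was at least 2-fold higher, the transcription factor Atf3 with 32.3 and 107 CPM (log2 ratio 1.43), and the list median was -0.12. In the unfolded protein response of the endoplasmic reticulum 0 of 17 were higher and 1 lower, and of 11 heat shock chaperones 0 were higher or lower. The 31 proteasome subunits had a median of -0.50 with 2 lower, and the 34 nuclear subunits of NADH dehydrogenase and the cytochrome complexes a median of -0.73 with 4 lower. On day 3 these medians were -0.56 and -0.52, so both lists were lower in the heme library before heme too.

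**Figure D4:**
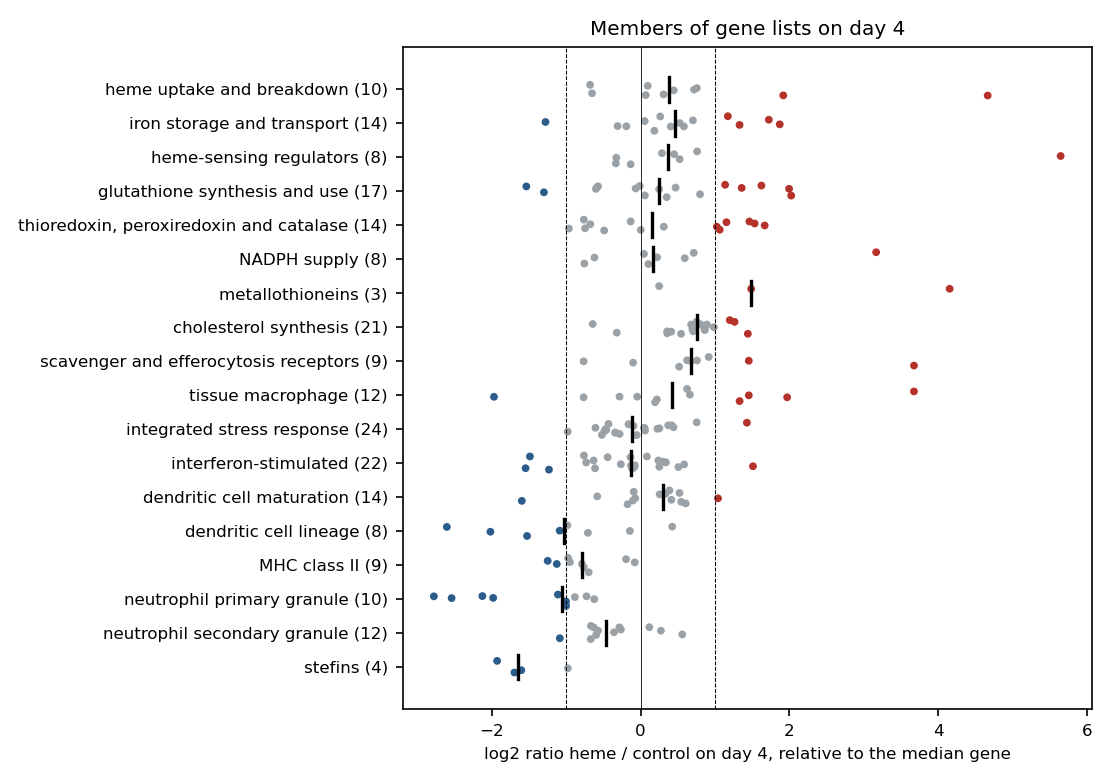
Each point is a member of a gene list, placed by its centred log2 ratio of heme over control on day 4, with the number of measured members in parentheses, a black bar at the list median and dashed lines at a 2-fold difference. Of the 18 lists shown, the metallothionein and cholesterol lists lie furthest to the right by their medians, at 1.49 and 0.75, and the stefin and neutrophil primary granule lists furthest to the left, at -1.65 and -1.06.

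Of 21 enzymes and receptors of cholesterol synthesis and uptake, 19 lay above the median gene and 3 were at least 2-fold higher, with a median of 0.75 that was -0.01 on day 3. Hmgcs1, the synthase that starts the pathway, lay at 50.6 and 169 CPM, 3.34-fold higher (3.16 to 3.52). Cyp51, a demethylase, lay at 48.6 and 137 CPM, and Lss, the cyclase, at 7.04 and 20.8 CPM, which gave log2 ratios of 1.20 and 1.26. Sqle, a rate-setting oxidase of the pathway, had a ratio of 0.98. Fdps and Ebp, with -0.32 and -0.64, were the 2 below the median gene, and they had lain at -1.01 and -0.77 on day 3. In lipid efflux and storage 1 of 11 was at least 2-fold higher, the lipid droplet coat Plin2 with 125 and 341 CPM (log2 ratio 1.15). Sqstm1, the autophagy receptor p62, lay at 72.5 and 222 CPM, 3.06-fold higher (2.92 to 3.203), as the 1 of 13 autophagy genes, and Lgmn, the lysosomal legumain, was the 1 of 23 lysosomal genes, with a log2 ratio of 1.09. In the vacuolar proton pump, 2 of 16 subunits were higher, and the other 14 were not 2-fold higher or lower. The counts of these lists stand beside 1.96% higher among all compared genes, and nothing about a list is read from a single member.

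Procr, the endothelial protein C receptor (chr2:155751117-155755471, plus strand), lay at 5.27 and 78.5 CPM, 14.9-fold higher (12.8 to 17.5), after 1.85 and 5.06 CPM on day 3. Angptl2, an angiopoietin-like secreted protein, lay at 5.05 and 51.6 CPM, 10.2-fold higher (8.70 to 12.1), after 3.42 and 6.75 CPM. Both differed far more on day 4 than before heme, by 2.50 and 2.42 net on the log2 scale. Gpnmb, a membrane glycoprotein of lysosome-rich macrophages, lay at 88.5 and 426 CPM, 4.82-fold higher (4.63 to 5.01). Of its heme-exposed UMIs 79.0% were in 1 cluster of mononuclear cells (cluster 4, described further on), and in the macrophage-like cluster 9 it was lower with heme, at 299 and 100.3 CPM. Cxcl3 and Cxcl2, chemokines that attract neutrophils, lay at 30.5 and 256 CPM and at 99.0 and 296 CPM, but Cxcl2 had a net difference of only 0.19 because its log2 ratio was already 1.09 on day 3. Of the heme-exposed Cxcl3 UMIs 70.2% were in cluster 4, at 1887 CPM in 10 control and 1063 CPM in 248 heme-exposed cells. In cluster 9 Cxcl3 lay at 129 and 349 CPM. Il1f9, an interleukin 1 family cytokine (IL-36γ), lay at 33.4 and 154 CPM, 4.61-fold higher (4.32 to 4.92), and was more abundant in neutrophil-like than in mononuclear cells, at 202 against 119 CPM with heme. Met, the hepatocyte growth factor receptor, Gdf15, a stress cytokine, and Edn1, the precursor of endothelin 1, had log2 ratios of 1.87, 1.92 and 1.54.

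Of 12 measured tissue macrophage genes 4 were at least 2-fold higher and 1 lower, with a median of 0.42. Here and for the 2 lists that follow, the shares over all compared genes were 1.96% and 2.63%. Cd36, a scavenger receptor for lipids, lay at 68.3 and 230 CPM, 3.37-fold higher (3.22 to 3.53), and Maf, a transcription factor of resident macrophages, at 3.38 and 10.5 CPM. Of the heme-exposed Cd36 UMIs 86.3% were in cluster 4, at 1285 CPM in 10 control and 1174 CPM in 248 heme-exposed cells. In cluster 9 Cd36 lay at 22.6 and 47.8 CPM. The general macrophage genes Csf1r and Adgre1, with log2 ratios of 0.20 and 0.66, were not among the 4 higher genes. C1qb, a complement subunit, lay at 14.3 and 4.46 CPM, 3.19-fold lower (2.71 to 3.78). Marco, a scavenger receptor, lay at 0.757 and 12.1 CPM, yet the heme library had 7.56 CPM on day 3 against 0.0842 CPM in the control library. The net log2 difference of Marco was -2.25, but its control day 3 level equals the floor of 3 UMIs. The size of its day 3 ratio is therefore uncertain, and no direction net of day 3 is given. Within the heme library it lay at 7.56 CPM on day 3 and 12.1 CPM on day 4. Among 14 C-type lectin receptors 2 were at least 2-fold higher and 4 lower, which split the list. Clec4d, a receptor for fungal and mycobacterial lipids, lay at 60.3 and 191 CPM, while Mgl2, Clec10a and Cd209a, lectins of dendritic and alternatively activated cells, were lower. Of 11 matrix metalloproteinases and inhibitors 3 were higher and 1 lower. Mmp12, macrophage elastase, lay at 775 and 1998 CPM, 2.58-fold higher (2.54 to 2.62), and the inhibitor Timp1 at 10.6 and 2.58 CPM, 4.13-fold lower (3.34 to 5.13). Cluster 4 held 78.9% of the heme-exposed Mmp12 UMIs, at 8517 CPM in the control and 9321 CPM with heme. In cluster 9 Mmp12 lay at 553 and 1324 CPM.

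Of 8 measured DC lineage genes 4 were at least 2-fold lower with heme and 0 higher, beside 2.63% and 1.96% of all compared genes. In this list 1 gene lay above the median gene, and the list median was -1.04, after -0.08 on day 3. Mgl2, a galactose lectin of type 2 DCs, lay at 232 and 70.2 CPM, 3.30-fold lower (3.17 to 3.44), after 82.8 and 100 CPM on day 3. Cd209a, the mouse DC-SIGN, lay at 8.96 and 1.80 CPM, 4.97-fold lower (3.88 to 6.42), and Irf4, a transcription factor of these cells, at 55.2 and 31.9 CPM. The 4 lower members, Clec10a included, were also at least 2-fold lower net of day 3. The single member above the median gene was Batf3, a transcription factor of type 1 DCs, with a log2 ratio of 0.42. Cells in the DC-like clusters described further on numbered 435 in the control and 98 in the heme-exposed culture. Because such genes name those clusters, the numbers of cells and the levels of the genes are not independent measurements.

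MHC class II genes, which present antigen to helper T cells, were all below the median gene. Of 9, 2 were at least 2-fold lower, beside 2.63% of all compared genes. H2-Ab1 lay at 769 and 481 CPM, 1.599-fold lower (1.57 to 1.63), and the invariant chain Cd74 at 3278 and 2370 CPM, 1.38-fold lower (1.37 to 1.39). Their log2 ratios of -0.97 and -0.76 followed -0.36 and -0.35 on day 3, and of the 9 members 0 passed the 2-fold limit net of day 3. The peptide-loading gene H2-DMa had the lowest ratio, -1.25. Maturation genes did not clearly share this direction. Of 14, 1 was higher and 1 lower. Their median of 0.29 ran from -0.12 to 0.59 over the processing settings, so no direction is given for this list. Ccr7, the receptor that guides mature DCs to lymph nodes, lay at 19.4 and 34.9 CPM, 1.79-fold higher (1.63 to 1.97), a log2 ratio of 0.55, and Cd83 had a ratio of 0.39. The T cell attracting chemokines differed in sign. Ccl17 lay at 2219 and 902 CPM, 2.46-fold lower (2.43 to 2.49), and Ccl22 at 169 and 248 CPM, 1.47-fold higher (1.42 to 1.52). Ccl2, which attracts monocytes, lay at 132 and 44.9 CPM, 2.93-fold lower (2.78 to 3.09).

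Among the lowest genes of the culture were a myosin light chain and several surface and matrix proteins. Myl10, the light chain (chr5:136693146-136701094, plus strand), lay at 61.7 and 4.19 CPM, 14.7-fold lower (12.7 to 17.2), after 92.1 and 56.6 CPM on day 3. Asgr2, an asialoglycoprotein receptor subunit, lay at 70.9 and 10.6 CPM, 6.66-fold lower (6.04 to 7.36). Tnfsf8, the CD30 ligand, lay at 39.0 and 6.80 CPM, and Fn1, fibronectin, at 43.6 and 7.94 CPM, 5.49-fold lower (4.89 to 6.18). Asgr2, Tnfsf8 and Fn1 had log2 ratios between -0.51 and -0.31 on day 3. Egr3, an immediate early transcription factor, turned from 1.15 on day 3 to -1.11 on day 4.

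Neutrophil primary granule genes, which are made at the promyelocyte stage, were at least 2-fold lower in 7 of 10 cases, with a median of -1.06. The heme library stood lower in them on day 3 as well, with a median of -0.89, and 4 of the 7 were also 2-fold lower net of day 3. Elane, neutrophil elastase, lay at 694 and 146 CPM, 4.74-fold lower (4.61 to 4.87), and Ctsg, cathepsin G, at 148 and 26.5 CPM, 5.59-fold lower (5.25 to 5.96). Mpo, myeloperoxidase, lay at 128 and 35.997 CPM, 3.56-fold lower (3.36 to 3.77), and it had been 382 and 507 CPM on day 3. Later granule genes differed less. Of 12 secondary granule genes 1 was lower, with a median of -0.46 on both days, and Ngp and Camp had ratios of 0.27 and -0.63. Of 14 mature neutrophil genes 1 was higher (Clec4d) and 2 lower, among them Retnlg, a secreted resistin-like protein, with 194 and 83.7 CPM. The stefins, cysteine protease inhibitors of neutrophil precursors, were at least 2-fold lower in 3 of 4 cases, but their day 3 median was already -1.11, and they form a family whose reads may be split.

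For signalling and housekeeping lists the counts stand beside 1.96% higher and 2.63% lower among all 9061 compared genes. Of 17 inflammatory chemokines and cytokines 2 were higher and 1 lower, and of 12 feedback genes of NF-kB 0 were higher or lower. Of 22 interferon-stimulated genes 1 was higher and 3 lower, with a median of -0.12. The 3 were Mx1, Usp18 and Xaf1, which lay at 8.17, 8.14 and 8.46 CPM in the control and at 3.43, 3.56 and 4.42 CPM in the heme-exposed culture, and Rsad2, another antiviral gene, was the 1 higher member with 5.27 and 18.5 CPM. Of 28 myeloid transcription factors 2 were higher (Maf and Mitf) and 3 lower (Irf4, Egr3 and Id2), 8 lay above the median gene and the median was -0.36. Of 15 genes of MHC class I presentation 3 were lower, all of them immunoproteasome subunits (Psmb8, Psmb9 and Psmb10), and the median of -0.44 had been -0.48 on day 3. Of 28 cell cycle genes 1 was lower and 2 lay above the median gene, with a median of -0.36 that was -0.08 on day 3. Of 14 chemoattractant receptors 1 was higher, the complement receptor C3ar1, and of 12 p53 response genes 2 were higher and 1 lower. The monocyte list had 0 of 10 members higher or lower, and a list of macrophage genes of the control cultures had 0 higher and 2 lower (Fn1 and Fabp4) of 11. The lists for Fc receptors, toll-like receptors, growth factor receptors, NADPH oxidase, glycolysis and arginine metabolism had medians between -0.24 and 0.09. Medians between -0.24 and 0 turned positive when the ratios were not centred, so for these lists no direction is given. Of 5 erythroid genes 0 were higher or lower, and of 6 basophil and 3 eosinophil genes 1 each was lower.

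To ask whether the differences were present within cell types, day 4 cells were clustered with genes of the heme, iron, oxidant and stress lists left out. Of 17 clusters 11 held 90% or more cells of 1 library, so clusters were joined into classes by markers. Neutrophil-like cells numbered 1269 in the control and 1924 in the heme-exposed culture, and mononuclear phagocyte-like cells (macrophage-, monocyte- and DC-like) 568 and 860. The mononuclear cells were mostly in the DC-like cluster 3 in the control, and in the monocyte-like cluster 15, the macrophage-like cluster 9 and the unnamed cluster 4 in the heme-exposed culture. Cluster 4 was led by Mt3, Cd36, Gpnmb and Cxcl3. Cluster 8, with 250 control and 12 heme-exposed cells, had the raised monocyte markers Ccr2 and Klf4. With fewer than 3 raised markers it was left unnamed, and it belongs to neither class. Neutrophil-like cells made up 56.1% (54.0 to 58.1) of the control and 64.2% (62.4 to 65.9) of the heme-exposed cells and mononuclear cells 25.1% (23.3 to 26.9) and 28.7% (27.1 to 30.3), but both differences changed sign with other clustering settings.

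The leading heme, iron and antioxidant genes were higher within both classes. Hmox1 lay at 42.0 and 733 CPM in neutrophil-like cells, 17.5-fold higher (16.0 to 19.2), and at 94.2 and 3263 CPM in mononuclear cells, 34.6-fold higher (32.6 to 36.8). In the 6 clusters with 40 or more cells of each library its log2 ratio ranged from 2.62 to 7.08. Slc48a1 was 5.16-fold higher in neutrophil-like and 4.18-fold higher in mononuclear cells, Gclm 5.10-fold and 5.11-fold, and Cat 4.44-fold and 3.04-fold. Over the same 6 clusters the log2 ratios ran from 1.69 to 2.66 for Slc48a1, from 1.55 to 2.32 for Gclm, from 0.93 to 1.61 for Cat, from 1.095 to 2.03 for Slc7a11, from 0.49 to 1.91 for Fth1 and from -1.76 to 3.53 for Gpnmb. Fth1 had log2 ratios of 1.27 and 1.26 in the 2 classes, although its level was 46438 CPM in heme-exposed mononuclear and 15902 CPM in heme-exposed neutrophil-like cells. Of 4284 genes compared in both classes, 22 were at least 2-fold higher in both, among them Hmox1, Slc48a1, Gclm, Slc7a11, Srxn1, Cat, Abcc1 and Fth1. There were 42 at least 2-fold lower in both, among them Gpx1 and Tfrc.

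Ferroportin was distributed differently between the classes in the 2 cultures. In the control culture 84.9% of the Slc40a1 UMIs were in neutrophil-like cells, at 81.8 CPM, while mononuclear cells lay at 3.47 CPM. In the heme-exposed culture the levels were 162 and 170 CPM, so the ratio was 1.98 (1.84 to 2.14) in neutrophil-like and 49.1 (35.8 to 69.2) in mononuclear cells. Cluster 4 alone held 36.8% of the heme-exposed UMIs, at 345 CPM, and the macrophage-like cluster 9 lay at 5.48 CPM in the control and 104 CPM with heme. The monocyte-like cluster 15 lay at 64.7 CPM with heme, against 49.96 CPM in all cells of the heme library on day 3. Slc11a1 behaved alike, with 19.8 and 48.2 CPM in neutrophil-like and 6.14 and 44.1 CPM in mononuclear cells.

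Some of the highest genes of the culture were mononuclear genes. Of the heme-exposed UMIs, mononuclear cells held 95.4% for Spic, 97.5% for Mt3 and 96.3% for Procr, although they held 49.2% of all UMIs. Spic lay at 0.979 and 50.8 CPM in mononuclear cells, Mt3 at 32.3 and 507 CPM and Procr at 11.7 and 154 CPM. The clusters differed, because 91.2% of the heme-exposed Mt3 UMIs and 78.2% of those of Procr were in cluster 4, whereas Spic was spread, with 90.8 CPM in cluster 9, 49.8 in the DC-like cluster 12, 44.9 in cluster 4 and 38.2 in cluster 15. Pf4, platelet factor 4, lay at 16.7 and 199 CPM in the cultures, 11.9-fold higher (10.9 to 13.04), but 50.1% of its heme-exposed UMIs came from 25 cells of cluster 10. That cluster was left unnamed. Its leading genes were the basophil genes Mcpt8, Prss34 and Cpa3, but also Prg2, Epx, Itga2b and Pf4 itself. The 26 control cells of cluster 10 held 0 Pf4 UMIs. Without that cluster Pf4 lay at 16.8 and 100 CPM, 5.95-fold higher (5.43 to 6.52).

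**Figure D5:**
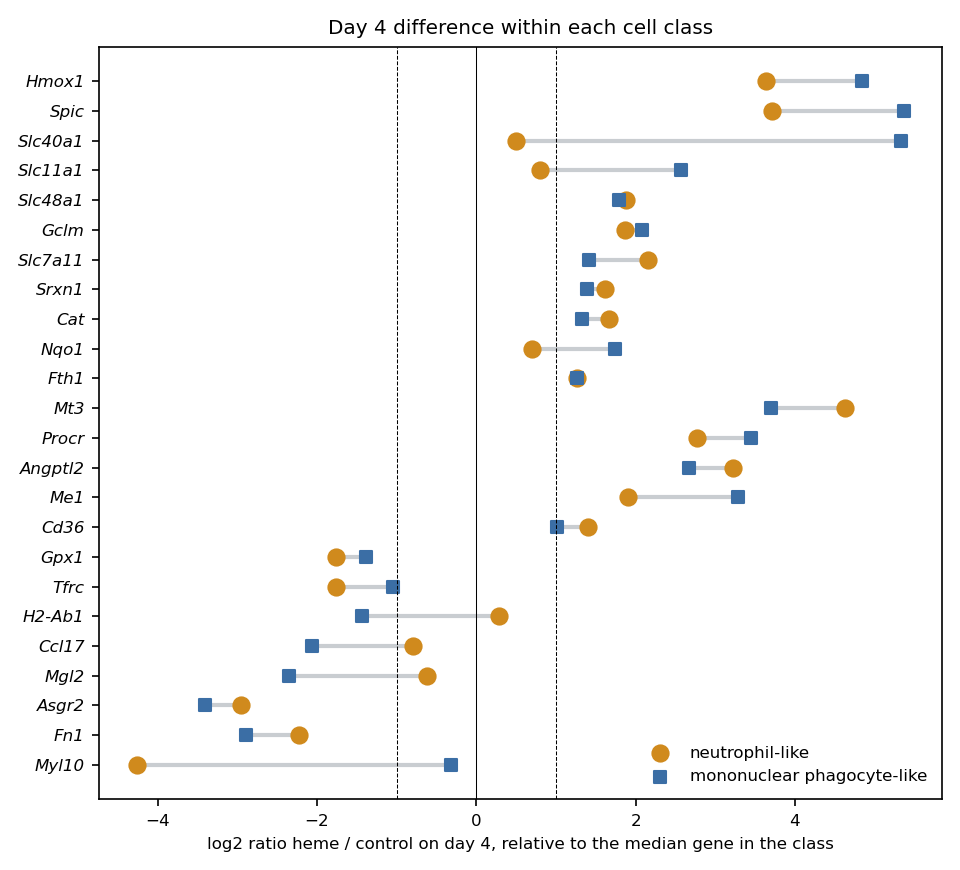
The centred log2 ratio of heme over control on day 4 is shown for 24 genes within neutrophil-like cells (orange circles) and within mononuclear phagocyte-like cells (blue squares), each relative to the median gene of its class, with dashed lines at a 2-fold difference. Gclm lay at 1.86 and 2.08 and Fth1 at 1.27 and 1.26, nearly together, while Slc40a1 lay at 0.50 and 5.33 and Myl10 at -4.25 and -0.32.

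The lower genes divided by class in the same way. In mononuclear cells Mgl2 lay at 568 and 134 CPM, 4.24-fold lower (4.06 to 4.43), Ccl17 at 6179 and 1788 CPM, 3.46-fold lower (3.41 to 3.50), and H2-Ab1 at 2079 and 926 CPM, 2.24-fold lower. This class was made of different clusters in the 2 cultures. Control cells of cluster 8, which is outside the class, lay at 148, 56.7 and 110 CPM for these genes. In the folds of the class, the mix of clusters and the level per cell cannot be told apart. Within single clusters the picture was another one. In the DC-like cluster 3, which held 388 control and 27 heme-exposed cells, Mgl2 lay at 708 and 710 CPM, H2-Ab1 at 2462 and 4103 CPM and Ccl17 at 7429 and 4748 CPM. In the DC-like cluster 12, of 47 and 71 cells, they lay at 135 and 164, at 1905 and 2306, and at 3838 and 2793 CPM. Mgl2 and H2-Ab1 were not lower with heme inside either DC-like cluster, whereas Ccl17 was lower in both. These genes were not left out of the clustering, and H2-Ab1 and Ccl17 are among the markers that named both clusters. Their levels inside the clusters thus depend in part on how cells were assigned and are no separate measure of the genes. In the whole mononuclear class Ccr7 lay at 52.9 and 66.5 CPM, a log2 ratio of 0.06. Cluster 12, which Ccr7 helps to name, held 94.5% of its control and 91.5% of its heme-exposed UMIs, at 771 CPM in each. In neutrophil-like cells Myl10 lay at 77.6 and 5.67 CPM, 13.7-fold lower, and Stfa2 at 245 and 59.2 CPM. The primary granule genes differed by class, but the granulocyte-monocyte progenitor-like clusters 6 and 16, which Elane and Prtn3 mark, belong to neither class. Cluster 6 held 137 control and 2 heme-exposed cells, and cluster 16 held 5 and 155. For Elane, Ctsg and Mpo the levels in both classes lay below those of the whole culture. In neutrophil-like cells Elane lay at 128 and 86.6 CPM, Ctsg at 12.01 and 9.14 CPM and Prtn3 at 220 and 135 CPM, lower with heme as in the whole culture, while in mononuclear cells all 3 were higher. Mpo lay at 8.47 and 31.3 CPM in neutrophil-like and at 10.8 and 32.1 CPM in mononuclear cells, higher with heme in both, and its level in the whole heme-exposed culture was 35.997 CPM. Neutrophil RNA was also more abundant in heme-exposed mononuclear cells. S100a8 lay there at 1854 CPM in the control and 4711 CPM with heme, which is 1.25% and 4.00% of its neutrophil-like level, and for Ngp, Camp, Ly6g and Retnlg the share went from between 0.389% and 0.810% in the control to between 1.55% and 2.35%. S100a8 also varied from cluster to cluster. Heme-exposed cells had more of it than control cells in cluster 3 (4921 against 900 CPM) and cluster 9 (9847 against 6664 CPM). The same held for cluster 15 (5271 CPM against 486 CPM in 3 control cells). They had less in cluster 4 (1938 against 3658 CPM) and cluster 12 (1912 against 3293 CPM). Control cluster 8, left out of the class, stood at 4790 CPM. What the mix of clusters, free RNA or doublets contributed to the mononuclear values was not tested.

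The share of cells with at least 1 UMI gave the same order when each cell was thinned to 3000 UMIs, which left 2161 control and 2839 heme-exposed cells. Hmox1 was found in 11.8% (10.5 to 13.2) of the control and 80.1% (78.6 to 81.6) of the heme-exposed cells, against 34.7% in the heme library on day 3, and unthinned the shares were 32.6% and 96.9%. In heme-exposed cells it was found in 76.5% of neutrophil-like and 93.3% of mononuclear cells. Gclm was found in 34.1% (32.1 to 36.1) and 83.3% (81.9 to 84.7), unthinned 69.9% and 95.7%, and Slc48a1 in 11.6% (10.3 to 13.04) and 42.5% (40.7 to 44.4), unthinned 39.2% and 77.6%. Slc40a1 was found in 0.890% of control and 26.4% of heme-exposed mononuclear cells, against 16.4% of all cells of the heme library on day 3. Spic was rarer, in 0.534% (0.110 to 1.55) of control and 11.7% (9.64 to 14.1) of heme-exposed mononuclear cells, and it was found in 0.619% of heme-exposed neutrophil-like cells, which should lack it. Mgl2 was found in 47.3% of control and 16.9% of heme-exposed mononuclear cells, and Ccr7 in 7.12% (5.13 to 9.57) and 7.15% (5.51 to 9.09). Median depth before thinning was 17637.5 and 23734 UMIs in these mononuclear cells and 8602 in the heme-exposed neutrophil-like cells.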

How the data were processed

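Cells from GM-CSF BM cultures were profiled with 10x 3′ chemistry, with 1 library for control and 1 for heme and hashtag antibodies for 5 culture days. Per the labels, the authors made the deposited UMI counts with Cell Ranger 4.0.0 (the matrix header names 5.0.0) on GRCm38.p6, and assigned hashtags with Seurat 3.2.3. The authors' hashtag calls and classes were used as deposited.

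Cells were kept at 500 genes and under 15% mitochondrial UMIs, with no upper gene limit. The limits of the study, at most 5000 genes per cell and under 30% ribosomal UMIs among them, leave 2092 control and 2481 heme cells. No doublet caller was run beyond the hashtags. Counts were summed per culture and divided by culture totals. Log2 ratios (0.5 UMIs added) were centred on the median of genes with a mean of 5 CPM or more. A difference was counted at 2-fold, with no test, since each group is 1 library and p-values would only compare libraries. Clusters came from Scanpy 1.11.5 (2000 variable genes, 15 components, 15 neighbours, resolution 1). A class needed 3 of its markers. Intervals were computed with SciPy 1.17.1, and the ratio script was tested on simulated data. Gene positions are those of GRCm38.

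Members and lists were chosen with earlier results of these data known. Genes were named as the 15 highest and 15 lowest by ratio with a mean of 20 CPM or more, the 8 highest and 8 lowest net of day 3, up to 4 per list by size, and a set shown by the study. Blvra, Hmox2, Flvcr1, Fbxl5, Ncoa4, Nfe2l2, Keap1, Gclc, Gstm1, Gpx3, Sod1, G6pdx, Fdps, Ebp, Adgre1, Ccl22, Batf3, Mgst1, Ppbp, Cyp26b1, Klk1b11 and Id3 fall outside that rule and were chosen after their values were seen.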

Additional observations from a re-analysis of the deposited data

Results flagged for a closer look

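On day 0, before any heme, Hmox1 was already at 124 CPM in cells of the heme-exposed series, whereas those of the albumin series had 1.84 CPM. These cells are in no comparison of day 4, and the source of the signal was not tested.

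Among the 4284 genes compared in both classes on day 4, 2 differed at least 2-fold in opposite directions. Mgst1, a microsomal glutathione transferase, lay at 471 CPM in the control and 297 CPM in the heme-exposed neutrophil-like cells, a centred log2 ratio of -1.15, and at 30.6 and 79.7 CPM in mononuclear cells, a ratio of 1.11. Prtn3, proteinase 3 of the primary granules, lay at 220 and 135 CPM in neutrophil-like cells, a ratio of -1.19, and at 41.5 and 110 CPM in mononuclear cells, a ratio of 1.14. Neither difference between the classes was tested, since each class has 1 library per group.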

How the results depend on the processing

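No paired analysis was possible because each group is 1 library. Main counts were 178 higher, 238 lower, 97 higher and 55 lower net of day 3. They were 450 and 82 (higher, lower) without centring, when 12 rather than 7 of the 45 lists with 5 or more compared members had a median past 0.5 in size. They were 380, 390, 197 and 129 at a minimum of 1 CPM, 97, 125, 52 and 26 at 20 CPM, and 1590, 1414, 1094 and 852 with no minimum. The limits of the study gave 468 lower and 52 higher net of day 3, and means of per-cell CPM gave 62 higher net. The difference in neutrophil-like share (8.08 points) was -8.78 at resolution 0.5, -5.94 at resolution 2, -0.244 with 30 components and 1.26 with no list left out. The mononuclear difference (3.58) was -7.04, -1.30, -9.25 and, within the limits of the study, -13.1. Of 104 named genes past 2-fold, all kept their sign under the 9 alternatives not restricted to a class, and between 83 (without centring) and 104 stayed past 2-fold. Past 2-fold were 60 of 101 within neutrophil-like and 82 of 103 within mononuclear cells. Within neutrophil-like cells the ratio reversed for Atp6v0d2 (-0.00687), C3ar1 (-0.93), Ccl5 (-0.38), Clec10a (0.11), Maf (-0.39), Mpo (1.39), Rsad2 (-0.0379) and Usp18 (0.17). Within mononuclear cells it reversed for Ctsg (1.32), Elane (0.71), G0s2 (0.78), Mpo (1.30), Prtn3 (1.14), Retnlg (0.31), Stfa1 (0.36), Stfa2 (0.83) and Stfa3 (1.71). The cause was not tested. Depth limits genes near the floor of 3 UMIs, which is 0.0947 CPM in the control and 0.0644 CPM in the heme-exposed culture.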

Other observations

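Some genes under a mean of 20 CPM differed as strongly as those named by rule, and they were chosen after their values were seen. Ppbp, a platelet chemokine precursor, was counted 28 times in the control and 1762 times in the heme-exposed culture, which is 0.884 and 37.8 CPM, a centred log2 ratio of 5.10 that was -0.28 on day 3. Cyp26b1, which breaks down retinoic acid, was counted 9 and 698 times, a ratio of 5.35 after 0.48 on day 3. Klk1b11, a kallikrein of a family with many near-identical members, lay at 23.01 and 1.67 CPM, a ratio of -4.07, and Id3, an inhibitor of differentiation factors, at 32.0 and 4.81 CPM, a ratio of -3.03. Prg2, the eosinophil and basophil major basic protein, lay at 24.6 and 2.28 CPM, and without the basophil-led cluster at 2.32 and 1.27 CPM.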
